A study of Mus musculus with 16 samples.

Results

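The response to CD28 costimulation was measured in CD4+ T cells that lack the transcription factor Dec1, by setting 4 arrays of cells given anti-CD3 plus anti-CD28 against 4 arrays of cells given anti-CD3 alone. These 8 arrays are part of a series of 16, whose other 8 hold wild-type cells under the same stimuli, and the comparison covers the 16427 genes that had a measurable probe with a single gene symbol. The T cells came from the spleen and lymph nodes of B6 mice and were sorted as CD4 positive and CD25 negative with a gate for naive cells, and kept for 24 h with antibody-coated latex beads. KO_CD3 denotes DEC1 knock-out cells with beads carrying anti-CD3, and KO_CD3CD28 the same genotype with beads carrying both antibodies. WT_CD3 and WT_CD3CD28 are the corresponding wild-type groups. Each group has replicates numbered 1 to 4. Age, the number of animals and the cells in which the gene was deleted are not given in the sources used here, and nothing in the labels says that the replicates came from separate animals, so the p-values measure only the spread among these samples, some of which may be technical.

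CD28 is the main costimulatory receptor of naive T cells. Engaged together with the T cell receptor, it strengthens signals through PI3K, NF-kB and AP-1, raises interleukin-2 output and survival, and helps the resting cell to grow and enter the cell cycle. Dec1, encoded by Bhlhe40, is a basic helix-loop-helix repressor that is itself induced by CD28 in activated T cells. The comparison therefore asks what CD28 adds to anti-CD3 when this induced factor is missing.

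Bhlhe40, the targeted gene, was at log2 levels of 5.57, 5.95, 5.43 and 5.18 in KO_CD3 and of 6.07, 5.88, 5.86 and 5.73 in KO_CD3CD28 (replicates 1 to 4, the order kept for all values below). Both groups lay near background and overlapped (difference 0.35, SE 0.27, adjusted p = 0.323), where wild-type cells went from 7.56 ± 0.42 to 9.51 ± 0.71 (SD, n = 4). Near background means here a mean rank below the 38.7 percentile of an array's probes, the highest rank that Y-linked genes reached on arrays with high Xist. The median of an array was between 6.64 and 6.97 over the series, and the knockout arrays correlated at 0.9695 to 0.995 within a group and at 0.9143 to 0.9555 between the groups. Xist, the RNA of the inactive X chromosome, was at 10.44 or above on the arrays of replicates 2 and 4 and at 5.51 or below on those of replicates 1 and 3, alike in both groups, so this difference does not follow the stimulus. The Y-linked Kdm5d was high where Xist was low, so each group holds cells of both sexes. Replicates 1 and 2 also stood apart from replicates 3 and 4 in many genes, as described further on; the labels name no batch. The number of arrays limits the precision.

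CD28 changed a large share of the measured genes. With limma and a Benjamini-Hochberg adjusted p under 0.05, 3357 genes were called higher in KO_CD3CD28 (20.4% of those tested) and 2888 lower (17.6%), or 6245 in all (38.0%). The 4 values of each group did not overlap for 5737 of all 16427 genes, of which 5194 were called. Of the called genes, 5993 moved the same way in 4 of 4 replicate numbers. Both counts come from the values that gave the calls, so they are no separate support. Most shifts were modest, with a median size of 0.55 on the log2 scale among called genes. The large ones were mainly increases: 778 genes rose by at least 2-fold against 286 that fell as much, and 169 against 30 by at least 4-fold. The median of all genes was -0.063. When each array was centred on the median of all its probes, this median became 0.071 and the calls split into 4283 higher and 1430 lower, 75.0% higher in place of 53.8%. Quantile normalization moved the balance the other way, to 2786 higher and 3262 lower (46.1% higher), so the directions of small changes are relative to the scaling.

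**Figure D1:**
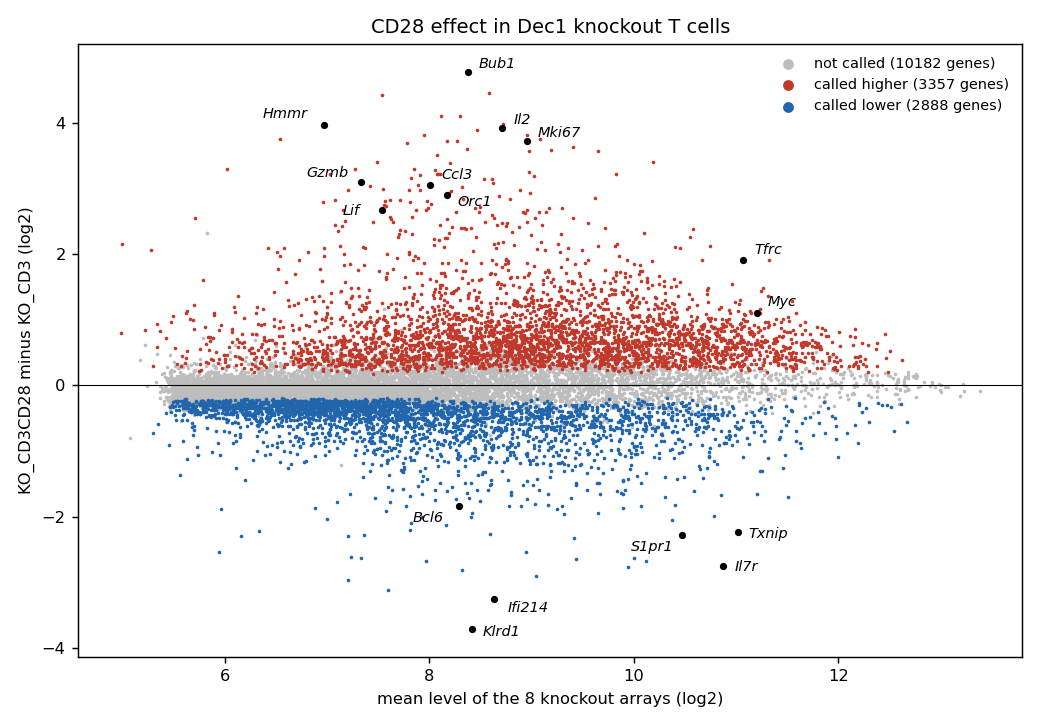
Difference between KO_CD3CD28 and KO_CD3 (log2, y axis) against the mean level on the 8 knockout arrays (log2, x axis), a point per tested gene. Red and blue points are the 3357 genes called higher and the 2888 called lower, and the points above 2 far outnumber those below -2.

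The 8 largest increases without overlap between the groups were Bub1, Shcbp1, Kif4, Knl1, E2f8, Nuf2, Hmmr and Il2, of which the first 7 serve cell division. Bub1, a kinase of the mitotic checkpoint, went from 5.73, 4.85, 6.31 and 7.08 to 10.52, 10.77, 10.85 and 10.94, at least an 18.7-fold rise (adjusted p = 2e-08). The bound is against the background level, since KO_CD3 lay near background, and the same is meant by "at least" below. Shcbp1, a protein of the dividing cell's midbody, rose 21.9-fold (log2 4.45, SE 0.31). The 8 largest decreases were Klrd1, Ifi214, H60b, Cnga1, Ifi206, Tcp11l2, Slc28a2b and Il7r. They have no theme tested here, but include receptors, a nucleoside transporter gene and a pair of interferon-inducible genes. Klrd1, a chain of the NK cell receptor CD94, fell from 9.7, 10.37, 10.18 and 10.86 to 6.16, 6.13, 7.09 and 6.87, a log2 change of -3.71 (SE 0.25, adjusted p = 8.52e-09). H60b, a ligand of the activating receptor NKG2D, fell at least 6.92-fold, from 9.16 to 6.04.

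Genes are described below by function. Across 48 lists with 868 genes, 788 were tested, 58 had no probe with a single symbol, and 22 were too dim, among them Il10, Il5 and Il21. Each list is given by the number of members called higher and lower, to be read beside the shares for all genes (20.4% and 17.6%), and most also by their median, beside that of all genes, -0.063.

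**Figure D2:**
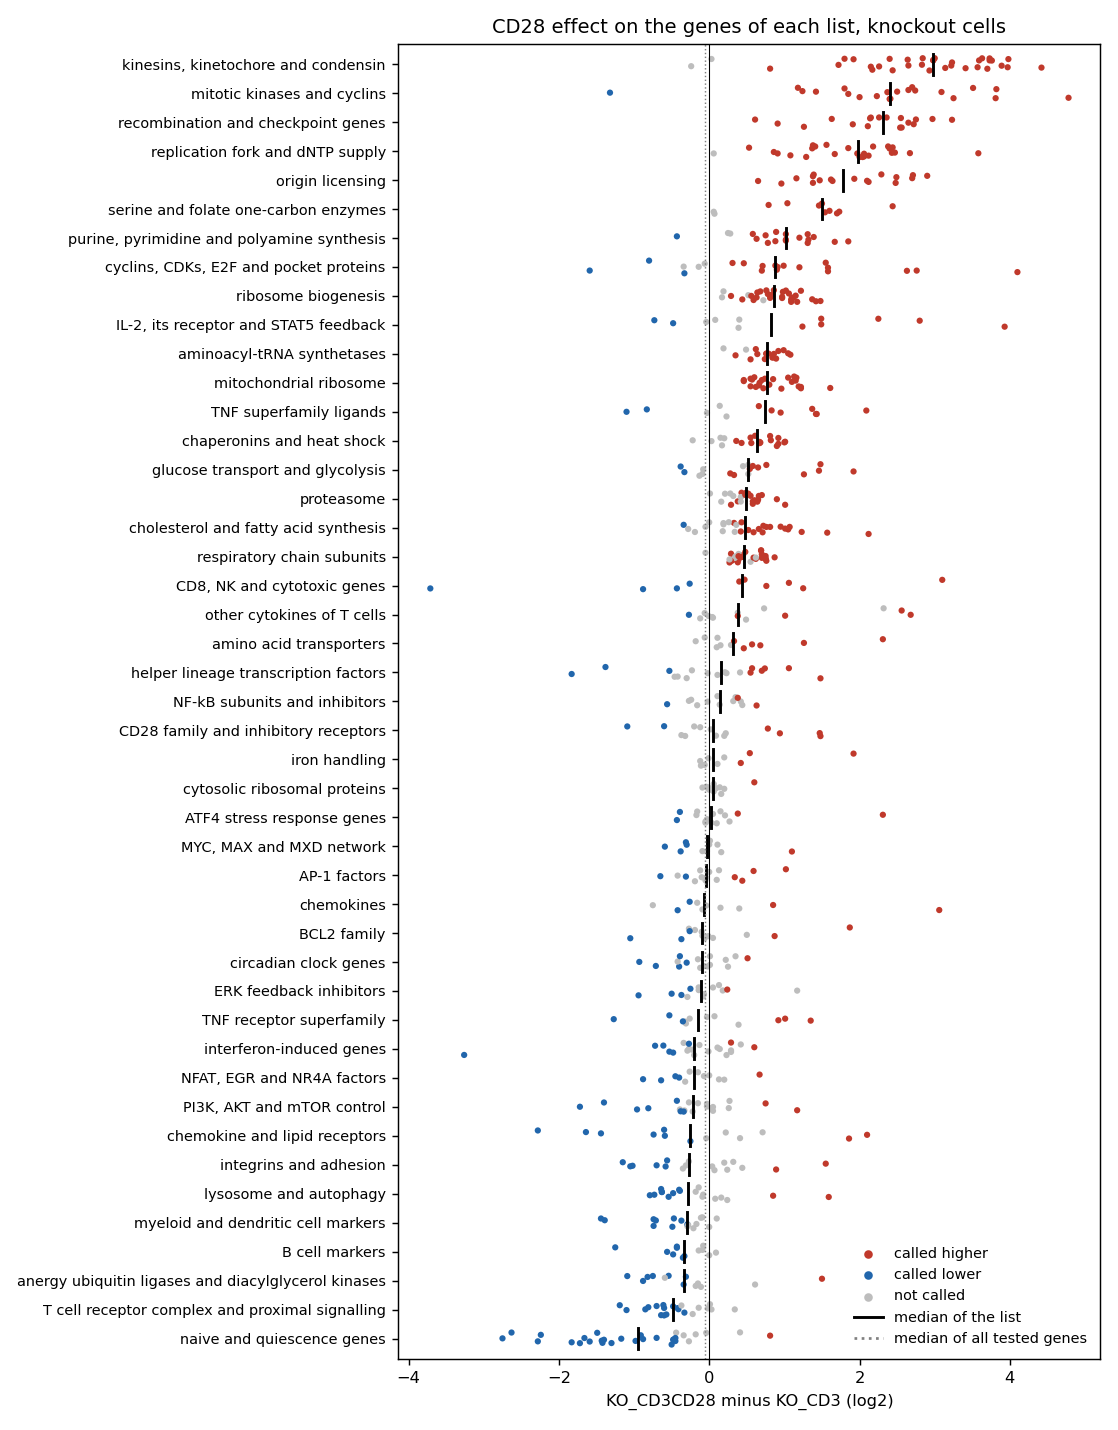
Difference between KO_CD3CD28 and KO_CD3 (log2, x axis) for the tested genes of 45 of the lists, a row per list and a point per gene, ordered by the median of the list (black bar). Red points were called higher, blue lower and grey not called, and the dotted line is the median of all tested genes. The lists of cell division are at the top, with medians of 2.31 to 2.98 for the upper 3, and naive and quiescence genes at the bottom, at -0.95.

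Interleukin-2, the growth factor that activated T cells make for themselves, carried the largest change among the cytokines. Il2 was at 7.08, 6.62, 6.39 and 6.91 in KO_CD3 and at 11.38, 11.5, 9.7 and 10.13 in KO_CD3CD28, a 15.2-fold rise (log2 3.93, SE 0.37, adjusted p = 3.01e-07). Every costimulated array lay above every anti-CD3 array, and replicates 1 and 2 were the highest. The window around the start of Il2 is shown because it holds the promoter region on which NFAT, AP-1 and NF-kB are known to act. It lies on the minus strand at chr3:37125905-37126204 (GRCm38.p6, RefSeq), with 250 bases before the start and 50 after it, and capitals mark the NFAT core word GGAAA on either strand.
Il2: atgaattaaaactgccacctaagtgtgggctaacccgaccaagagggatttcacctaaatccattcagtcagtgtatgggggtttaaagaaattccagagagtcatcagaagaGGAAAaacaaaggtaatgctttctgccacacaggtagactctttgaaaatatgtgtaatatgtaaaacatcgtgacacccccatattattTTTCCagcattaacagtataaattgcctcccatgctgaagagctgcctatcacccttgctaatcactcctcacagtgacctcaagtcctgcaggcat
The window has 2 such words and 0 copies of the AP-1 word TGANTCA. Among the 8 called-higher genes of the IL-2 and cytokine lists that have a window in the promoter table, 6 hold GGAAA (75.0%, against 62.8% of the 12917 tested genes with a window) and 1 holds TGANTCA (12.5% against 7.0%). The short NFAT word is thus common in any window.

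The receptor side of the pathway rose as well. Il2ra, the chain that gives the receptor high affinity, went from 10.8, 10.71, 10.39 and 10.17 to 11.75, 11.9, 12.17 and 12.2 (log2 1.49, SE 0.19, adjusted p = 1.03e-05). Il2rb, the signalling chain shared with interleukin-15, rose by 1.24 (SE 0.19, adjusted p = 5.99e-05). Cish, a feedback inhibitor that STAT5 induces, rose 4.77-fold, from 7.34, 6.89, 6.91 and 7.04 to 9.3, 9.15, 9.29 and 9.45. The values of all 3 genes were apart between the groups. In all, 6 of the 12 tested genes of the list rose, the others being Il2, Socs2 and Pim2, while the kinase gene Jak1 (-0.73, SE 0.12) and Stat5b (-0.48, SE 0.12) fell.

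Of 14 other cytokines tested, 5 were called (35.7%), a share near that of all genes (38.0%): 4 rose (Lif, Il3, Ebi3 and Tgfb1), Il13 fell by 0.27, and the list's median was 0.38. Lif, a cytokine of the interleukin-6 family, went from 6.32, 6.44, 6.09 and 5.95 to 8.83, 8.65, 8.72 and 9.34, at least 5.65-fold (adjusted p = 2.24e-08), with little spread in either group. Il3, a growth factor for blood progenitors, was at 4.69, 4.44, 4.42 and 4.2 in KO_CD3 and at 8.36, 8.81, 4.99 and 5.8 in KO_CD3CD28. It was high only on the arrays of replicates 1 and 2, its rise was at least 1.53-fold (adjusted p = 0.0209), and the call was lost without KO_CD3CD28 replicate 1 (adjusted p = 0.0769) or replicate 2 and with a trended, robust variance (0.0541).

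Il1a and Csf2 had the same pattern as Il3 without passing the test. Il1a, an inflammatory cytokine named here after its values were seen, was at 4.6, 4.54, 4.92 and 4.63 in KO_CD3 and at 8.8, 9.03, 5.12 and 4.99 in KO_CD3CD28 (adjusted p = 0.0679). Csf2, which encodes GM-CSF, was at 6.96, 6.89, 5.21 and 5.52 in KO_CD3CD28, with overlap of the groups and means near background in both (adjusted p = 0.257, and 1.88e-06 with replicates 1 and 2 alone). Ifng, the interferon of type 1 helper cells, differed by 0.49 (SE 0.21, adjusted p = 0.0756), and by the same amount with an adjusted p = 0.0148 when the replicate number was a block. With that block 7 of the 14 cytokines were called higher.

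Ligands of the TNF superfamily, by which T cells address other cells, rose more often than they fell. Of 12 tested, 7 rose and 2 fell, with a median of 0.74. Lta, lymphotoxin alpha, went from 8.58, 8.56, 8.17 and 7.98 to 10.4, 10.29, 10.36 and 10.57 (log2 2.09, SE 0.21, adjusted p = 6.32e-07), and Tnfsf9, the ligand of 4-1BB, rose at least 2.16-fold. The others that rose were Tnf, Tnfsf4, Tnfsf8, Tnfsf11 and Tnfsf14. Tnf went from 9.37, 9.19, 10 and 9.31 to 10.42, 10.65, 10.18 and 10.42 (log2 0.95, SE 0.23, adjusted p = 0.00401), a call that was lost with replicates 3 and 4 alone (adjusted p = 0.234). Ltb, lymphotoxin beta, moved against its partner Lta, from 10.28, 10.41, 10.31 and 10.01 down to 8.92, 9.05, 9.28 and 9.37 (log2 -1.10, SE 0.17, adjusted p = 5.9e-05), and Fasl fell by 0.83.

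The receptors of the family split evenly, with 3 of 12 higher and 3 lower. Tnfrsf10b, a death receptor for TRAIL, rose by 1.01 (SE 0.2, adjusted p = 0.000571), as did the costimulators Tnfrsf4 and Tnfrsf18. Cd27, a costimulator of resting T cells, fell from 11.55, 11.4, 11.35 and 10.81 to 10.17, 10.02, 9.89 and 9.95 (log2 -1.27, SE 0.15, adjusted p = 4.17e-06), and Tnfrsf14, the receptor of LIGHT, by 0.53. After quantile normalization 6 of these receptors were lower.

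Within the CD28 family and inhibitory receptors, 4 of 14 rose and 2 fell. Ctla4, the inhibitory relative that competes with CD28 for its ligands, went from 9.78, 9.28, 10.36 and 10.52 to 11.2, 11.27, 11.65 and 11.74 (log2 1.48, SE 0.22, adjusted p = 4.22e-05). Cd226, an activating receptor for nectin-like ligands, rose from 8.45, 8.63, 9.45 and 9.62 to 10.66, 10.82, 10.22 and 10.32, so that its rise was larger in replicates 1 and 2. Vsir, an inhibitory receptor known as VISTA, fell by 1.09 (SE 0.13, adjusted p = 6.46e-06). Cd28 itself was at 11.76, 11.8, 12.12 and 12.24 against 11.46, 11.42, 11.92 and 11.85. Its difference of -0.32 (SE 0.16) was not called (adjusted p = 0.122), but had an adjusted p = 0.00378 with the replicate number as a block and 0.018 after quantile normalization.

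Chemokine genes were uneven. Ccl3, an attractant of macrophages and T cells, was at 6.8, 6.36, 6.44 and 6.33 in KO_CD3 and at 10.78, 11.2, 7.64 and 8.52 in KO_CD3CD28 (log2 3.06, SE 0.8, adjusted p = 0.00591). The groups did not overlap, but replicates 1 and 2 stood far above replicates 3 and 4. Its neighbour in function Ccl4 reached 7.48, 7.71, 6.49 and 6.69, and its call (adjusted p = 0.0466) was lost under several of the alternatives. Ccl20 and Ccl5 were the members lower of 10 tested.

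Chemokine and lipid receptors fell more often than they rose: of 13 tested, 7 fell and 2 rose. Ccr6, Ccr7, Cxcr3 and Cxcr5 were not called. S1pr1, which lets lymphocytes leave lymph nodes, fell from 11.58, 11.84, 11.58 and 11.46 to 8.7, 8.64, 10.18 and 9.81 (log2 -2.28, SE 0.31, adjusted p = 2.11e-05). S1pr4 fell by 1.44 (SE 0.14). Ccr4, a receptor of activated and skin-homing T cells, went the other way, from 8.88, 8.56, 9.01 and 7.9 to 10.62, 10.69, 10.21 and 10.29 (log2 1.86, SE 0.21, adjusted p = 2.01e-06), and so did Ccr8. Of 17 adhesion genes 6 fell and 2 rose. The integrin chains Itga4 (-1.15, SE 0.13) and Itgb7 (-1.05, SE 0.17), which pair to bind the gut addressin, fell. The chain Itgb1 (0.89, SE 0.12) and the hyaluronan receptor Cd44 (1.55, SE 0.27), a mark of activated cells, rose.

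Of 21 tested genes of the T cell receptor complex and its proximal signalling, 14 fell and 0 rose, with a median of -0.48, and with replicates 3 and 4 alone 5 fell. Ptpn22, a phosphatase that restrains receptor signals, fell from 11.34, 11.28, 11.42 and 11.58 to 9.98, 10.07, 10.51 and 10.33 (log2 -1.19, SE 0.12, adjusted p = 8.19e-07). Cd247, the zeta chain of the receptor, fell by 0.70 (SE 0.14), and the phospholipase gene Plcg1 by 0.64 (SE 0.13). The calls of Cd247 and Plcg1 were lost with replicates 3 and 4 alone (adjusted p = 0.148 and 0.12). Thus genes of activating and of restraining proteins of the receptor pathway were both among those that fell.

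In the list for PI3K, AKT and mTOR control, 7 of 21 fell and 2 rose, with a median of -0.22. Pik3ip1, an inhibitor of PI3K that resting T cells express, went from 9.38, 9.36, 9.18 and 9.06 to 7.29, 7.34, 7.82 and 7.65 (log2 -1.72, SE 0.15, adjusted p = 1.41e-07). Sesn1, a restraint on mTORC1, fell by 1.4 (SE 0.14), and Rictor, a subunit of mTORC2, by 0.96 (SE 0.14). The kinase gene Akt1 and the amino acid sensor Rragd rose. Rragd, singled out after its values were seen, stayed at 7.15 and 7.17 on replicates 1 and 2 of KO_CD3CD28 and reached 8.86 and 8.62 on replicates 3 and 4, the reverse of the cytokine pattern (adjusted p = 0.0431).

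Of 13 ubiquitin ligases, diacylglycerol kinases and other genes linked to anergy, the unresponsive state of T cells stimulated without CD28, 7 fell and 1 rose. Cblb, a ligase that sets the threshold for CD28, fell from 11.28, 11.21, 11.6 and 11.28 to 10.38, 10.36, 10.57 and 10.76 (log2 -0.82, SE 0.13, adjusted p = 6.96e-05). Dgke, a diacylglycerol kinase, fell by 0.54. Nrn1, a surface protein known from neurons and from regulatory and anergic T cells, was the member that rose, from 9.39, 8.54, 9.45 and 9.21 to 10.71, 10.8, 10.29 and 10.79 (log2 1.5, SE 0.2, adjusted p = 1.8e-05).

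Transcription factors downstream of the receptor showed no common shift. Of 12 NFAT, EGR and NR4A factors 4 fell and 1 rose, but 1 fell and 3 rose when arrays were centred on all probes. Egr2, a factor tied to anergy, fell from 11.43, 11.12, 11.57 and 11.15 to 10.35, 10.28, 10.39 and 10.73 (log2 -0.88, SE 0.18, adjusted p = 0.000859). Egr1 fell by 0.64, a call lost under that centring (adjusted p = 0.0518). Of 15 AP-1 factors 4 rose and 2 fell. Batf, a partner of IRF4 in effector cells, rose by 1.02 (SE 0.23, adjusted p = 0.0018, and 0.0569 with replicates 3 and 4 alone), while Bach2, a repressor that keeps T cells quiescent, fell by 0.65 (SE 0.15).

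NF-kB, ERK feedback and lineage factors were also mixed. Rel, the NF-kB subunit that acts at Il2, rose from 10.9, 10.9, 10.87 and 10.83 to 11.54, 11.63, 11.4 and 11.46 (log2 0.63, SE 0.09, adjusted p = 1.7e-05). Of 13 tested NF-kB genes 2 rose and 1 fell, and with replicates 1 and 2 alone 7 rose and 2 fell. Rasal3 (-0.94, SE 0.15) and Spry1 (-0.50, SE 0.11), which restrain RAS and ERK, fell, among 4 lower and 1 higher of 14. Of 18 helper lineage factors 6 rose and 3 fell, and 1 of those called lay near background in both groups. The 6 were Foxp3, Irf8, Eomes, Runx3, Ikzf2 and Ahr, of which Irf8, a factor of the interferon regulatory family, rose from 7.51, 7.46, 7.36 and 7.36 to 9.46, 9.22, 8.36 and 8.56 (log2 1.48, SE 0.28, adjusted p = 0.000437). Bcl6, the factor of follicular helper cells, fell from 9.67, 9.3, 9.28 and 8.6 to 7.51, 7.51, 7.22 and 7.28 (log2 -1.83, SE 0.17, adjusted p = 2.82e-07), and Ikzf3 by 1.38 (SE 0.18). Without KO_CD3CD28 replicate 2, 3 of the lineage factors were called higher.

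Because Dec1 belongs to the circadian feedback loop, the clock genes were listed apart. Of 16 tested, 5 fell and 1 rose. Arntl, the activator also called BMAL1, fell from 8.77, 8.7, 8.73 and 8.47 to 7.78, 7.67, 7.98 and 7.51 (log2 -0.93, SE 0.1, adjusted p = 8.01e-07). The repressor gene Nr1d2 fell by 0.71 (SE 0.11), and Per1, Dbp and Tef were the other members that fell. Nfil3, a repressor of clock outputs, rose by 0.51 (SE 0.1). The clock list's median was -0.10 and turned sign when arrays were centred on all probes.

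Single genes of the BCL2 family changed in both directions, while the family as a list was near all genes. Bcl2l1, which encodes BCL-XL and is the known survival gene of the CD28 pathway, went from 8.27, 8.12, 7.82 and 7.87 to 10.62, 10.45, 9.21 and 9.27 (log2 1.87, SE 0.32, adjusted p = 0.000164). Bcl2l11, the killer protein BIM, fell from 9.63, 9.33, 9.57 and 9.41 to 8.6, 8.58, 8.37 and 8.18 (log2 -1.05, SE 0.1, adjusted p = 3.26e-07). Bid, another promoter of death, rose by 0.87 (SE 0.17). Of 13 tested members 2 rose (15.4%) and 3 fell (23.1%), Mcl1 and Hrk being the others that fell. These shares are near those of all genes (20.4% and 17.6%), and the list's median was -0.09.

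**Figure D3:**
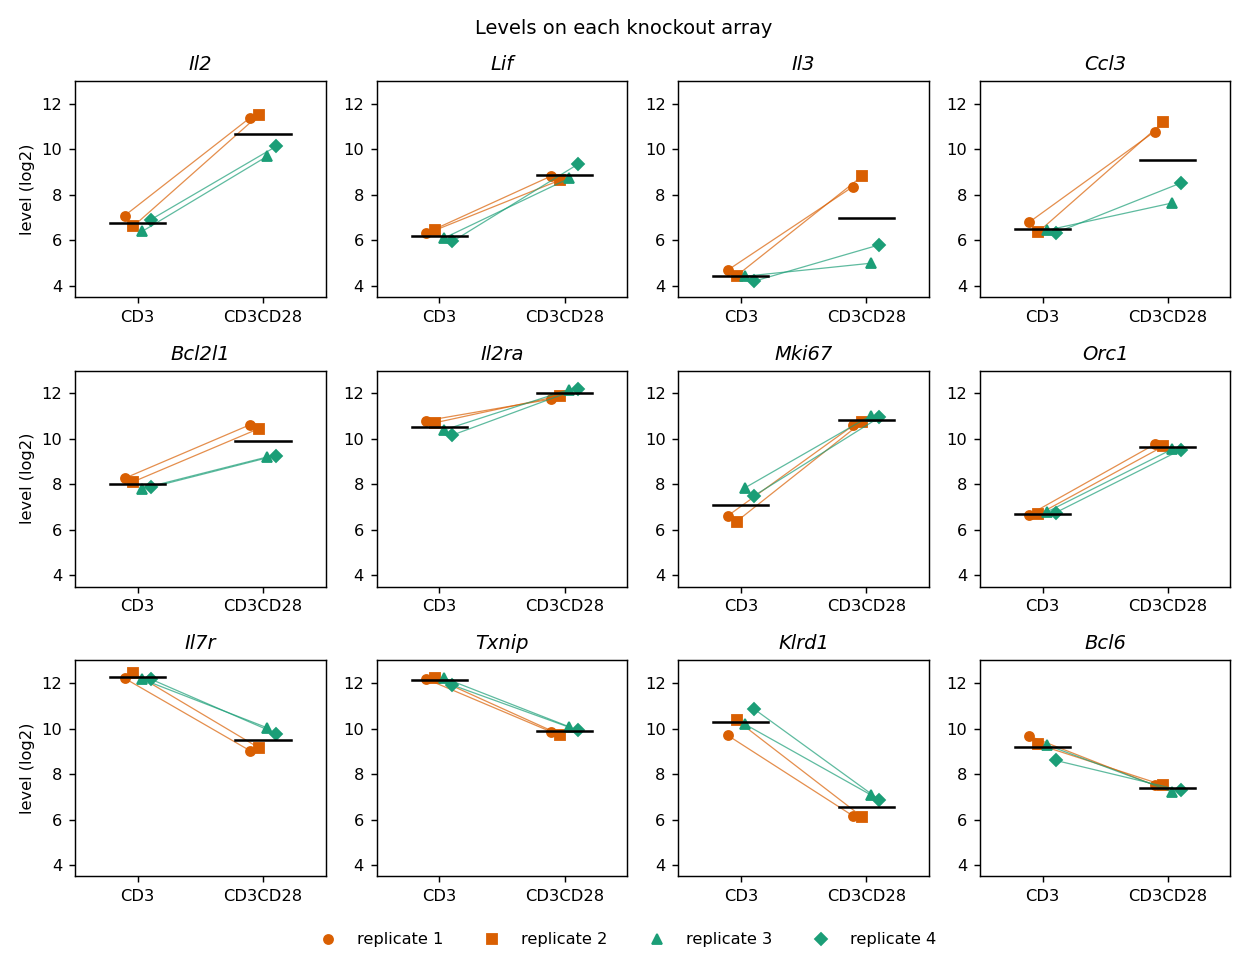
Log2 level (y axis) of 12 genes on each knockout array under anti-CD3 (CD3) and anti-CD3 plus anti-CD28 (CD3CD28). Symbols are replicate numbers, orange for 1 and 2 and green for 3 and 4, lines join the same number, and black bars are the means of the 4 arrays. Il3 and Ccl3 are far higher on replicates 1 and 2, while Lif, Orc1 and Txnip differ little between the numbers.

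Genes of the resting state fell together. Of 30 tested naive and quiescence genes 23 fell (76.7%) and 1 rose, with a median of -0.95, and the mean level of the list on an array was 10.13 to 10.31 in KO_CD3 and 9 to 9.4 in KO_CD3CD28. Txnip, which limits glucose uptake and binds thioredoxin, went from 12.18, 12.22, 12.23 and 11.91 to 9.85, 9.73, 10.08 and 9.92 (log2 -2.24, SE 0.1, adjusted p = 1.02e-10). Il7r, the receptor chain for the survival cytokine interleukin-7, went from 12.21, 12.44, 12.17 and 12.17 to 9.03, 9.16, 10.03 and 9.78 (log2 -2.75, SE 0.21, adjusted p = 2.92e-08). Klf3, a repressor of the Krüppel-like family, fell by 1.49 (SE 0.11). Igfbp4 was the member that rose, by 0.81 (SE 0.29, adjusted p = 0.037).

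Genes of DNA replication rose nearly without exception. Before each S phase, the origin recognition complex, CDC6 and CDT1 load the MCM helicase on DNA. The origin licensing list holds genes of these proteins and others that are not loaders: Gmnn, Mcm10, Cdc45 and Gins1 to Gins4. All 18 tested genes of the list rose, from 0.65 for Cdt1 to 2.90 for Orc1, with a median of 1.79. Their mean level was 8.28, 8.12, 8.76 and 8.56 in KO_CD3 and 10.42, 10.31, 10.2 and 10.22 in KO_CD3CD28. Orc1, a subunit of the recognition complex, went from 6.67, 6.68, 6.79 and 6.76 to 9.76, 9.68, 9.55 and 9.52 (7.48-fold, adjusted p = 2.04e-11). The groups were far apart, with replicates close together in each. Mcm10 (2.71, SE 0.15) and Cdc45 (2.70, SE 0.19), which turn the loaded helicase into a moving fork, rose by similar amounts.

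Of 26 genes of the replication fork and of nucleotide supply 25 rose, with a median of 1.99, and Dck was the member not called (0.06, adjusted p = 0.792). Pola1, the catalytic subunit of the primase-polymerase, went from 8.35, 8.09, 8.83 and 8.79 to 10.91, 10.8, 11.02 and 10.94 (log2 2.40, SE 0.15, adjusted p = 4.09e-09). Pole, the leading-strand polymerase, rose by 2.67 (SE 0.21), and Tyms, which makes thymidylate, by 2.44 (SE 0.17). These genes are known targets of E2F factors. The Orc1 window is shown for its E2F-like word, TTTNNCGC on either strand, in capitals. It lies on the plus strand at chr4:108579204-108579503 (GRCm38.p6, RefSeq), and the word begins 27 bases before the start.
Orc1: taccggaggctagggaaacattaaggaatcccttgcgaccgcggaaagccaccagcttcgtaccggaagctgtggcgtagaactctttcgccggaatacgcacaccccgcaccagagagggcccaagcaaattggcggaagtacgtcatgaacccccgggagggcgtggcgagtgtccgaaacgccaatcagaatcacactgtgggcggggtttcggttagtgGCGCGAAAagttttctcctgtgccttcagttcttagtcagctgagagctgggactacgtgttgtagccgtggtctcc
Of the 35 called-higher members of both replication lists that have a window, 16 hold this word (45.7%), against 8.4% of the 12917 tested genes with a window and 13.5% of all genes called higher. The match is a description of the letters only.

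All 18 tested genes of recombination and the replication checkpoint rose, with a median of 2.31. Fancd2, a central protein of the Fanconi repair pathway, went from 6.15, 6.07, 6.4 and 6.1 to 8.94, 8.91, 8.97 and 8.91, at least 5.78-fold (adjusted p = 4.7e-10). Rad51ap1 (2.36, SE 0.13) and Rad54l (2.65, SE 0.17), which assist strand exchange, rose likewise.

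Among cyclins, their kinases, E2F factors and pocket proteins, 15 of 21 rose and 3 fell. E2f8, a repressing E2F that is itself induced in S phase, rose at least 13-fold, from 5.55, 5.78, 6.69 and 6.25 to 10.43, 10.49, 9.77 and 9.99 (adjusted p = 1.15e-08). E2f3, an activating member, rose by 2.76 (SE 0.23), and the phosphatase gene Cdc25a by 1.58 (SE 0.15). The 3 that fell were Ccnd1, the inhibitor gene Cdkn1b (-1.59, SE 0.2) and Rbl2 (-0.80, SE 0.17), which encodes the pocket protein of resting cells. After quantile normalization 5 fell.

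Mitotic lists had the highest medians. Of 21 mitotic kinases and cyclins 20 rose, with a median of 2.41, and of 34 genes of kinesins, the kinetochore and condensin 32 rose, with a median of 2.98, while Cenpa and Smc4 were not called. Melk went from 6.46, 6.42, 6.89 and 6.78 to 9.32, 9.26, 9.4 and 9.39 (log2 2.70, SE 0.13, adjusted p = 2.42e-10), and Bub1b, a part of the spindle checkpoint, rose by 3.09 (SE 0.17). Cdc25b, a phosphatase that activates CDK1, was the member that fell, by 1.32 (SE 0.17), in contrast to Cdc25c, which rose at least 4.12-fold. Mki67, the proliferation marker Ki-67, went from 6.62, 6.37, 7.86 and 7.5 to 10.59, 10.73, 11.02 and 10.95, a 13.3-fold rise (adjusted p = 2.06e-08). Under anti-CD3 alone it was higher on replicates 3 and 4, so the step was smaller there. Cenpf, a kinetochore protein, rose at least 6.36-fold, and Prc1, which bundles microtubules of the central spindle, at least 6.31-fold. In bulk samples, more cells in cycle and more RNA per cycling cell cannot be told apart.

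Hmmr, a spindle protein, had the smallest adjusted p of the mitotic lists (2.4e-11), from 5.26, 4.73, 4.91 and 5.06 to 8.68, 8.88, 9.07 and 9.19, at least 5.96-fold. Its window, on the minus strand at chr11:40733388-40733687 (GRCm38.p6, RefSeq), is shown for the word of the cell cycle homology region, TTTGAA or TTCGAA on either strand, which the DREAM and MuvB complexes are known to bind. Here it begins at base 9 after the start, in capitals.
Hmmr: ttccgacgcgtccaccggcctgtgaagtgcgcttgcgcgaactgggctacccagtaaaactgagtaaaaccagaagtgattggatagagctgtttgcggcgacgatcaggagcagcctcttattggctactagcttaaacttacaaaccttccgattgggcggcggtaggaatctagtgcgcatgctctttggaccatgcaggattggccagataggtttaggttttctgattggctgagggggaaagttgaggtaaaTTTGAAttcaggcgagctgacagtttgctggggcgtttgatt
Of the 43 called-higher members of both mitotic lists with a window, 31 hold the word (72.1%), against 16.8% of all tested genes with a window and 19.3% of those called higher.

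Growth genes were measured in several lists. Myc, the factor that drives growth of activated T cells, went from 10.79, 10.9, 10.41 and 10.52 to 11.89, 11.99, 11.51 and 11.65 (log2 1.10, SE 0.13, adjusted p = 3.83e-06), and its antagonists Mxd4 (-0.59, SE 0.07) and Mxi1 (-0.38, SE 0.08) fell. In the whole MYC, MAX and MXD list, 1 of 11 rose and 4 fell, with a median of -0.03, and 2 rose and 2 fell when arrays were centred on all probes. Of 31 genes of ribosome biogenesis 27 rose and 0 fell, with a median of 0.86. Dkc1, which modifies ribosomal RNA, went from 10.17, 10, 10.24 and 10.26 to 11.34, 11.22, 11.18 and 11.28 (log2 1.09, SE 0.08, adjusted p = 3.22e-08). Nop58 (0.97, SE 0.09) and Gnl3 (1.02, SE 0.1), both nucleolar, rose alike. The genes of cytosolic ribosomal proteins were different: 1 of 14 rose, Rpl14 (0.60, SE 0.13), and the median was 0.05.

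Of 18 aminoacyl-tRNA synthetases, which charge tRNAs with amino acids, 16 rose and 0 fell, with a median of 0.78. Rars went from 11.05, 11, 11.16 and 11.11 to 11.83, 11.81, 11.83 and 11.88 (log2 0.76, SE 0.07, adjusted p = 3.2e-07). Among 12 amino acid transporters 6 rose, and 3 without KO_CD3CD28 replicate 1, without replicate 2 or with the knockout arrays alone. Slc43a3, a transporter of the amino acid transporter family whose known substrates are purine bases, rose from 8.07, 7.7, 8.5 and 8.27 to 10.73, 10.64, 10.12 and 10.28 (log2 2.31, SE 0.18). Slc7a5, the large neutral amino acid transporter of activated T cells, rose by 1.26 (SE 0.26, adjusted p = 0.000943).

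Serine and folate enzymes, which supply carbon units for nucleotides, rose in 9 of 11 cases, with a median of 1.5. Mthfd2, the mitochondrial folate enzyme, went from 9.5, 9.35, 9.58 and 9.57 to 11.26, 11.21, 10.98 and 10.97 (log2 1.6, SE 0.12, adjusted p = 1.67e-08), and Psat1 of serine synthesis rose by 1.70 (SE 0.14). Of 15 ATF4 stress response genes only 2 rose and 2 fell. Asns, which makes asparagine, rose from 7.05, 6.63, 6.81 and 6.22 to 9.82, 9.3, 8.43 and 8.4 (log2 2.31, SE 0.37, adjusted p = 8.76e-05), whereas Ddit3, the stress factor CHOP, fell by 0.39, a call lost when arrays were centred on all probes (adjusted p = 0.053). Of 19 genes of purine, pyrimidine and polyamine synthesis 16 rose and Sat1, which degrades polyamines, fell. Ctps, the enzyme that makes CTP, rose by 1.85 (SE 0.18), and Ppat, the first enzyme of purine synthesis, by 1.02 (SE 0.08).

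Energy and lipid genes moved less. In the list of glucose transport and glycolysis, 10 of 18 rose and 2 fell, with a median of 0.52, and 5 rose with replicates 3 and 4 alone. Slc16a1, a lactate exporter, rose by 1.46 (SE 0.15) and Tpi1, of glycolysis, by 1.48 (SE 0.19), from 9.37, 9.18, 9.68 and 9.36 to 11.17, 11.11, 10.52 and 10.7. The members that fell were the glucose transporter gene Slc2a3 and Pdk1. Of 28 genes of cholesterol and fatty acid synthesis 17 rose and Abca1, a cholesterol exporter, fell. Scd2, a fatty acid desaturase, rose at least 3.5-fold, and Sqle, of sterol synthesis, by 1.07 (SE 0.12). With replicates 3 and 4 alone 11 rose.

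In the lists of mitochondria and of protein quality, every called gene of the 4 lists was higher. All 24 tested genes of the mitochondrial ribosome rose, with a median of 0.77 and a range of 0.46 to 1.61, the highest being Mrpl45. Of 28 genes of the respiratory chain and its upkeep 21 rose (median 0.47), of 25 proteasome genes 18 (median 0.49) and of 20 chaperonins and heat shock genes 15 (median 0.64), with 0 lower in each. Those not called include Polrmt (-0.05, SE 0.11) and Hspb1, which lay near background. Psmd12, of the proteasome lid, went from 11.01, 11.03, 11.08 and 11.12 to 11.76, 11.81, 11.61 and 11.67 (log2 0.65, SE 0.07, adjusted p = 1.81e-06). Cct6a, of the cytosolic chaperonin, rose by 0.90 (SE 0.09) and Ndufa9, of respiratory complex I, by 0.70 (SE 0.09). With replicates 3 and 4 alone, 14 of the mitochondrial ribosome, 8 of the respiratory and 9 of the proteasome genes were called.

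Tfrc, the transferrin receptor by which dividing cells take up iron, went from 10.05, 9.7, 10.16 and 10.54 to 12.06, 12, 12 and 12.05 (log2 1.92, SE 0.15, adjusted p = 3.06e-08), among 3 of 10 iron genes that rose. Lysosome and autophagy genes went down in 9 of 18 cases and up in 2, with 3 lower in replicates 3 and 4 alone. Ctsl, a cathepsin, fell by 0.79 (SE 0.15), and Ulk1, a kinase that starts autophagy, by 0.48 (SE 0.1). Ifi30, a lysosomal thiol reductase, rose against them, from 8.83, 8.64, 8.84 and 7.96 to 10.28, 10.21, 10.05 and 10.06 (log2 1.59, SE 0.18). Of 21 interferon-induced genes 6 fell and 2 rose, and when arrays were centred on all probes 3 fell and 4 rose. Ifi214 went from 9.62, 9.91, 10.49 and 11.02 to 6.39, 6.46, 7.78 and 7.36 (log2 -3.26, SE 0.34, adjusted p = 9.27e-07), while Stat2, a transducer of interferon signals, fell by 0.72 (SE 0.13).

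Markers of other cells that a sort could carry along went in different directions by cell type. Of 12 tested B cell markers 7 fell and 0 rose (median -0.34), and their mean level on an array was 6.28 to 6.61 in KO_CD3 and 6.04 to 6.2 in KO_CD3CD28. The 7 include 5 that lay near background in both groups, Cd79a among them, and with arrays centred on all probes 1 fell. Of 17 myeloid and dendritic cell markers 9 fell (median -0.29), with mean levels of 6.51 to 6.82 and of 6.17 to 6.26. Itgax, Csf1r, Mpeg1 and Spi1 were near background in both groups, and Fcgr3 and Tyrobp fell by 0.74 each (SE 0.11 and 0.16). The part of these cells in the other changes was not tested. T cell markers were high throughout: Cd4 was at 10.92, 11.09, 11.2 and 10.67 and at 10.92, 10.88, 10.94 and 11.06, while 6 of 11 T cell identity genes fell and Thy1 rose (0.69, SE 0.12).

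In the list of CD8, NK and cytotoxic genes, 6 of 10 rose (Cd8a, Cd8b1, Nkg7, Gzmb, Gzmc and Eomes) and 4 fell. The mean level of the list was 7.23 to 7.35 in KO_CD3 and 7.33 to 7.58 in KO_CD3CD28, and 1 of the called genes lay near background in both groups. The CD8 lineage genes were among those that rose: Cd8a went from 7.08, 7.37, 6.92 and 7.14 to 7.5, 7.57, 7.6 and 7.43 (log2 0.40, SE 0.09, adjusted p = 0.00183), and Cd8b1 from 8.52, 8.52, 8.84 and 8.79 to 9.19, 9.12, 9.67 and 9.75 (log2 0.76, SE 0.17, adjusted p = 0.00188). Neither overlapped between the groups, and the part of CD8 cells in the other changes was not tested. Gzmb, granzyme B, was at 6.73, 5.33, 5.32 and 5.73 in KO_CD3 and at 9.39, 9.06, 8.37 and 8.7 in KO_CD3CD28, at least 5.28-fold higher (adjusted p = 6.71e-05), and Nkg7, a granule protein, rose by 1.25 (SE 0.18). Klrd1 fell by far the most, as given above, and Gzmk, Prf1 and Ctsw fell. Among 14 genes known from regulatory T cells, 5 rose (Foxp3, Ikzf2, Il2ra, Ctla4 and Tnfrsf18), and Nt5e, the ectoenzyme CD73, fell by 1.73 (SE 0.28). Foxp3, the defining factor of regulatory T cells, went from 7.81, 7.88, 7.72 and 7.86 to 8.24, 8.53, 8.27 and 8.44 (log2 0.55, SE 0.19, adjusted p = 0.0276), a call lost with replicates 3 and 4 alone (adjusted p = 0.12) and after quantile normalization (0.0608). Ikzf2, the regulatory factor Helios, rose by 0.74 (SE 0.15, adjusted p = 0.000837, and 0.0572 with replicates 3 and 4 alone). The part of regulatory cells in the other changes was not tested. Of 12 memory and effector markers 4 rose and 1 fell.

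The CD28 effect was not the same in the replicate numbers. Of the 6245 called genes, 3269 (52.3%) had larger differences in both replicates 1 and 2 than in either of replicates 3 and 4, and 331 (5.3%) the reverse. Among genes called higher the median difference was 0.8 and 0.84 in replicates 1 and 2 and 0.49 and 0.58 in replicates 3 and 4; among genes called lower it was -0.50, -0.53, -0.41 and -0.37. With replicates 1 and 2 alone 4211 genes were called higher and 3471 lower, and with replicates 3 and 4 alone 1815 and 1081, of which 2791 were among the 6245. Il1a, Il3 and Ccl3 showed the widest gaps toward replicates 1 and 2. Socs2, another STAT5 feedback gene chosen here after its values were seen, went the other way: from 6.7, 6.24, 6.31 and 6.37 it reached 8.27, 8.35, 10.07 and 10.14. Origin licensing genes (medians 2.08, 2.13, 1.37 and 1.72) and mitotic kinases and cyclins (2.64, 2.64, 2.29 and 2.57) rose in each number.

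**Figure D4:**
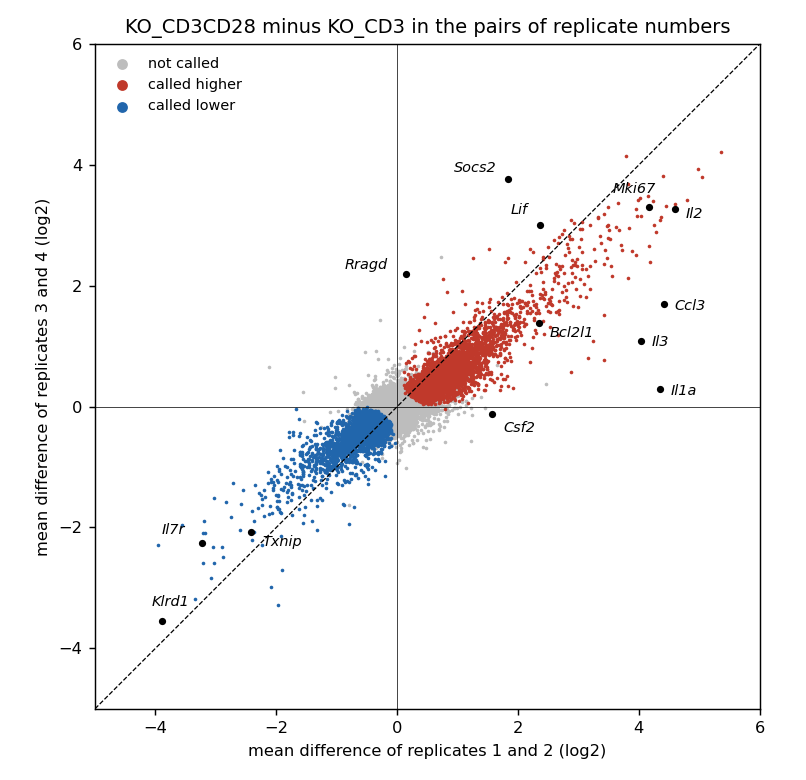
Mean difference between KO_CD3CD28 and KO_CD3 in replicates 3 and 4 (log2, y axis) against that in replicates 1 and 2 (log2, x axis), a point per tested gene, with the dashed line marking equal differences. Il1a, Il3 and Ccl3 lie far to the right of the line, and Socs2 and Rragd lie above it.

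The CD28 effect in knockout cells was also set against that in wild-type cells, as the difference of the differences. limma called 0 of 16427 genes (0.0%), with 867 at an unadjusted p under 0.05, so no single gene is shown to respond differently. Nor are the responses shown to be alike, since Bhlhe40, the targeted gene, was itself among those not called. With replicates 1 and 2 alone 80 genes were called, and 1 with genotype and replicate number as blocks. The group means of the lists are therefore given side by side, with no test. The mean level of the origin licensing genes was 8.43 in KO_CD3 and 9.13 in WT_CD3, and 10.29 in KO_CD3CD28 and 10.34 in WT_CD3CD28. That of ribosome biogenesis was 9.74 and 10.1 under anti-CD3, and 10.6 and 10.66 with CD28. For cyclins, their kinases and E2F factors the means were 8.3 and 8.55, then 9.16 and 9.23, and for naive and quiescence genes 10.2 and 10.09, then 9.18 and 9.14. Lists outside growth also differed under anti-CD3, such as the CD28 family, at 9.36 and 9.63, then 9.54 and 9.55.

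Among genes called in knockout cells, some of those with the smallest unadjusted p of this difference are described next. They were picked for it, and none was called for the difference. Genes not called in knockout cells, such as Bhlhe40, were left out of this choice. Orc1 was at 6.72 in KO_CD3 and 7.49 in WT_CD3 and reached 9.63 and 9.61 with CD28 (difference of effects 0.78, SE 0.15, adjusted p = 0.905). Cdca7, a MYC and E2F target, was at 9.05 and 9.95 and reached 10.77 and 10.83 (0.84, SE 0.17). Rrs1, a ribosome assembly factor, was at 8.33 and 9 and reached 9.66 and 9.58 (0.75, SE 0.17), and Nasp, a histone chaperone, at 10.01 and 10.49 and reached 11.42 and 11.37. Spry1 differed in the same direction while falling, since it stood at 8.21 in KO_CD3 and 9.03 in WT_CD3 and ended at 7.71 and 7.83. Of the other direction only Qpct is described, which was at 6.95 in KO_CD3 and 6.28 in WT_CD3, and at 6.08 and 6.22 with CD28.

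**Figure D5:**
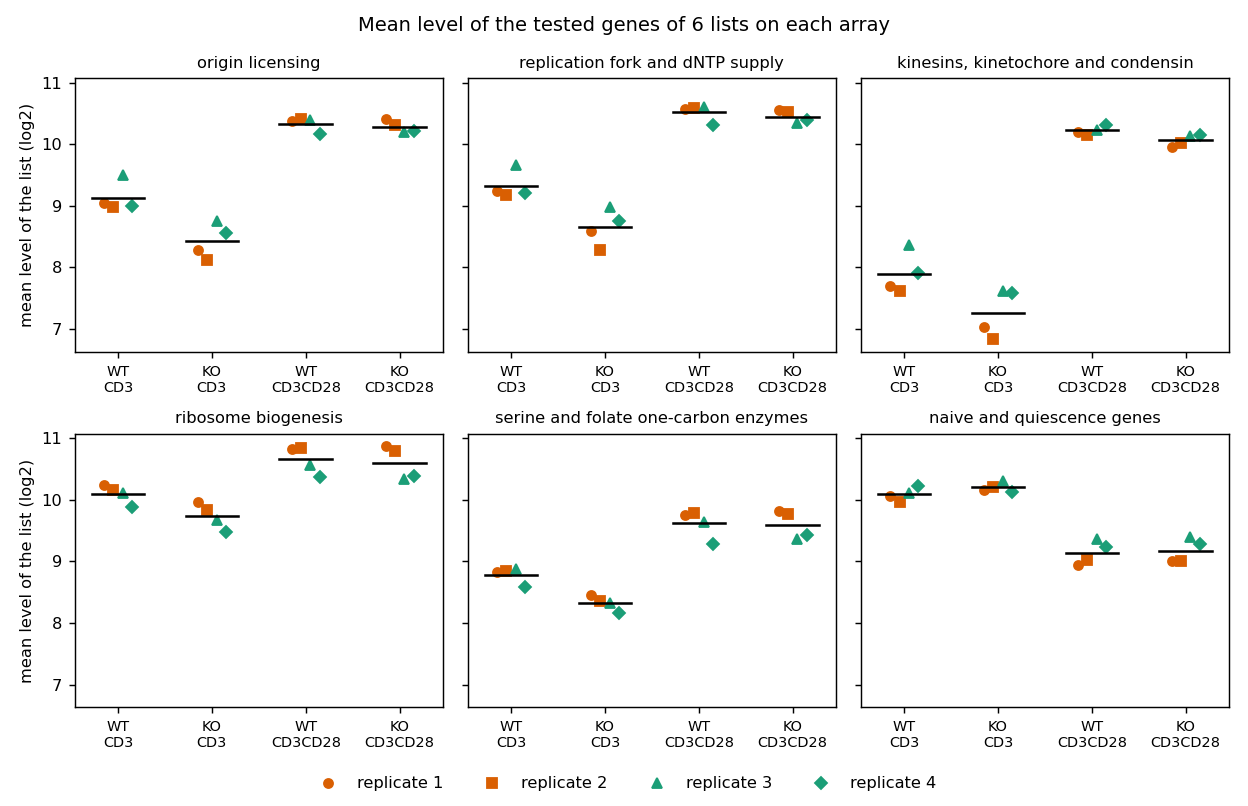
Mean log2 level (y axis) of the tested genes of 6 lists on each of the 16 arrays, by group, with symbols for the replicate number and black bars for the mean of the 4 arrays. In the licensing, replication, kinesin, ribosome and serine lists the mean of KO_CD3 lies below that of WT_CD3, while the means of KO_CD3CD28 and WT_CD3CD28 are close. The naive and quiescence genes are high under anti-CD3 and low with CD28 in both genotypes.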

How the data were processed

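Per the submitters' processing notes, the deposited log2 values were made with RMA; other upstream steps and the genome build of the array are not given in the sources used here. Per the labels' protocols, total RNA was extracted with Trizol and labelled with biotin. The table holds 35556 probes on 16 arrays. Of 23410 probes with a gene in the platform table, 21789 had 1 symbol and 1621 several; single-symbol probes above the 25th percentile of their array on at least 4 arrays were kept (17930), and the brightest stood for each of 861 genes with more than 1, giving 16427 genes.

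A mean per group was fitted over all 16 arrays with limma 3.58.1 under R 4.3.3 (12 residual degrees of freedom, 4.92 prior), and KO_CD3CD28 minus KO_CD3 was tested with Benjamini-Hochberg adjustment over all genes. SE are limma's moderated ones. The script was tested on simulated data. Summaries were made in Python 3.11.15 (pandas 2.3.3, numpy 2.4.6) and plots with matplotlib 3.10.9. Folds against a group near background use, per array, the higher of its value and the level at the 38.7 percentile. Genes to be named were the 8 strongest called genes without group overlap per direction and the 3 smallest p of each list. The 6 smallest p of the genotype difference in each direction, among genes called in knockout cells, were added. A panel was added too. The text does not give every gene so chosen, and it gives others where said or where they complete a count. The members and lists were chosen with earlier results of these data known. Promoter windows came from a RefSeq table (GRCm38.p6).

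Numbers in the labels run from 1 to 4 in each group, and same-numbered knockout arrays deviated together from their group means (r 0.22 to 0.51). The median r for other numbers was -0.16. It is no separate baseline, since deviations from a group mean cancel and so push it to negative values. Each array matched its own number best in 4 of 4 cases. The same held for the wild-type stimuli and for the genotypes under anti-CD3. For the genotypes under both antibodies it held in 1 of 4 cases. The replicate block, which joins the same number across both genotypes, is given where it changes a call. Alternatives covered the filter, scaling, the arrays fitted, blocks, the variance model, the choice of probe, the replicate pairs and leaving out each array.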

Additional observations from a re-analysis of the deposited data

Results flagged for a closer look

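Among 334 groups of 4 values, from 167 named genes in KO_CD3 and KO_CD3CD28, 15 had an array standing apart from the other 3, or 4.5%; chance gives about 1 in 20. In KO_CD3, replicate 1 was apart for Rictor (9.82), Egr1 (10.12) and Cenpf (5.8), and replicate 2 for Il7r (12.44), Cct6a (10.38) and Oas2 (7.33). Replicate 3 was apart for Il13 (7.47) and Nop58 (10.59), and replicate 4 for Ifi206 (10.8), Txnip (11.91) and Rps2 (12.35). In KO_CD3CD28, replicate 1 was apart for Junb (7.7) and Spry1 (7.87), replicate 3 for Tgfb1 (9.01) and replicate 4 for Cd247 (9.89). The ranges of these groups were small, for instance 10.38 to 10.48 for Cct6a and 9.84 to 9.89 for Cd247.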

How the results depend on the processing

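Of 167 named genes, 136 kept the same call in the knockout comparison under every alternative, and 0 reversed. Direction was not compared where a gene was called neither in the main fit nor in the alternative. The count of genes higher ranged from 2947 to 3387 and of genes lower from 2224 to 2863 when a knockout array was left out. With replicates 3 and 4 alone 1815 were higher and 1081 lower. Centring each array on all its probes, an alternative chosen after seeing the data, left 1430 lower. The replicate block gave 7441 calls and, within genotype, 7078, against 6245. For knockout against wild type, 1 gene was called with the replicate block within genotype and 80 with replicates 1 and 2 alone. With replicates 3 and 4 alone, the median of helper lineage factors became -0.03 and that of adhesion genes 0.03. Genes near background in either group have a bound at most.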

Other observations

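Probes for miRNA genes were measured along with the other genes, and these were described after their values were seen. miRNAs are short RNAs that lower their target mRNAs through bases 2 to 8, the seed. Of 140 tested miRNA genes 51 were called lower in KO_CD3CD28 (36.4%) and 7 higher (5.0%), beside 17.6% and 20.4% of all genes, with a median of -0.24. With arrays centred on all probes 27 were lower and with replicates 3 and 4 alone 12. Of the 140 genes 40 lay near background in both groups, and 9 of the 51 called lower were among these. The probes may read the hairpin precursor or its host transcript as well as the mature form, which these arrays do not part.

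The members with the largest falls are shown by their mature arms from RefSeq, with the seed in capitals.
miR-15b-5p: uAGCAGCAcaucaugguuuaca
miR-16-5p: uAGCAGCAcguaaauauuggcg
miR-103-3p: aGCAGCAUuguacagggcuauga
miR-142a-3p: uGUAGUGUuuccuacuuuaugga
miR-342-3p: uCUCACACagaaaucgcacccgu
miR-15b and miR-16 share the seed AGCAGCA, and the seed of miR-103 is the same run shifted by a base. Mir15b went from 7.27, 7.23, 7.44 and 7.84 to 4.92, 4.84, 6 and 5.14, and Mir16-2 from 6.71, 6.93, 6.91 and 7.06 to 4.61, 4.8, 5.35 and 5.33. The groups did not overlap for either. KO_CD3CD28 lay near background for both, so Mir15b fell at least 2.31-fold and Mir16-2 at least 1.58-fold.
Smc4, the gene that hosts them, differed by -0.24 (SE 0.14, adjusted p = 0.169). Mir103-2 went from 8.47, 8.22, 8.59 and 8.04 to 6.53, 6.22, 7.15 and 6.54, while its host Pank2 differed by -0.06. Mir342 fell by 1.30, and its host Evl fell too, by 0.88 (SE 0.11). Mir142, a miRNA of blood cells, went from 9.8, 9.54, 9.24 and 8.47 to 7.95, 7.91, 7.4 and 7.44. Among the 7 that rose, Mir363 had the largest difference, from 4.7, 4.66, 3.79 and 3.85, near background, to 6.55, 5.84, 6.34 and 6.52 (adjusted p = 2.38e-05). Its KO_CD3CD28 mean, 6.31, did not exceed the background level of the KO_CD3 arrays, so the size of its rise has no bound. Mir155, which is known to rise in activated T cells, rose by 0.76 (adjusted p = 0.022, and 0.251 with replicates 3 and 4 alone), and Mir17 by 0.48 (adjusted p = 0.0133, and 0.297 with replicates 1 and 2 alone).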
